A study of Mus musculus with 6 samples.

Results

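The immunoglobulin variable segments are the 221 rows of the gene tables whose names start with Ighv, Igkv or Iglv and a digit, of 37732 genes joined between the tables. They comprise 114 heavy chain segments on chromosome 12, 104 kappa segments on chromosome 6 and 3 lambda segments on chromosome 16. They were measured by RNA-seq in B-cell acute lymphoblastic leukaemia (B-ALL) of C57BL/6 mice, in a fed control group, a group fasted for 1 day and a group fasted for 2 days. All 3 groups carried the same disease: lineage-negative fetal liver cells expressing N-Myc and a GFP reporter were transplanted, fasting began when GFP-positive cells made up about 60% of blood cells, and GFP+B220+ cells were sorted from bone marrow. Each group has 2 libraries, called run 1 and run 2 here. Over all genes the runs of a group differed by about the read-sampling error (median ratio of squared difference to sampling variance 1.09 to 1.10, against 5.89 to 19.2 between groups). Each group was therefore counted as 1 sample. On variable segments alone the ratio ranged from 0.50 to 1.80 for runs of the same group, the highest at 1 day, and from 2.54 to 13.6 for runs of different groups. Differences between groups thus have no replicate check, and none was tested. The sources used here do not give the age or number of mice, the promoter driving N-Myc, or whether mice were pooled.

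A B cell builds each antigen receptor gene by joining a variable (V) to a joining (J) segment in its DNA, with a diversity segment between them in the heavy chain, and splices the joined exon to a constant region. The V segment encodes most of the antigen-binding domain, and its own small leader exon encodes most of the signal peptide. All cells of a clone inherit the same rearranged V segment, so the spread of reads over V segments is a common reading of clonality in B-cell malignancies. V segments that have not been rearranged can also be transcribed at low levels, as germline transcripts. Reads lying within a segment or across its leader splice can be counted for that segment. A short read that crosses the V-to-J joint has no continuous match in the germline genome and may be left out. How such reads were treated here was not tested.

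The 7 segments that led a locus in at least 1 group are shown first, with Igkv9-120, the segment with the most reads across its own leader splice. Each line gives the first 300 bases of the germline coding sequence in the GENCODE M21 annotation on build GRCm38, read on the coding strand, with the leader exon in capitals and the V exon in lower case. Ighv3-6 lies at chr12:114288152-114288582, minus strand, and Ighv1-81 at chr12:115920279-115920712, minus strand. Igkv15-103 lies at chr6:68437468-68437925, plus strand, Igkv1-88 at chr6:68862265-68863031, minus strand, Igkv12-44 at chr6:69814631-69815100, minus strand and Igkv9-120 at chr6:68049983-68050456, plus strand. Iglv1 lies at chr16:19085017-19085460, minus strand, and Iglv3 at chr16:19241207-19241679, minus strand.
Ighv3-6: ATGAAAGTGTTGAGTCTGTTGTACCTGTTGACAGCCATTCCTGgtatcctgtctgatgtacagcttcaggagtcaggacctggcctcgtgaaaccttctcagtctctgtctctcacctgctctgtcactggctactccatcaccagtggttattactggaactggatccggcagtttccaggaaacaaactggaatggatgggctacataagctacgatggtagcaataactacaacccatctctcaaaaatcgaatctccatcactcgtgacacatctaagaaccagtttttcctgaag
Ighv1-81: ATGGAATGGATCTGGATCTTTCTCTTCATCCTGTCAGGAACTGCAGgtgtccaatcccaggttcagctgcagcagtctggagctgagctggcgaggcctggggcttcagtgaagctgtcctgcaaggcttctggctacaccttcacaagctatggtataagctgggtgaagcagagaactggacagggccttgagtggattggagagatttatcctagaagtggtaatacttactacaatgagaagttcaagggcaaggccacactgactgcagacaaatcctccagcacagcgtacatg
Igkv15-103: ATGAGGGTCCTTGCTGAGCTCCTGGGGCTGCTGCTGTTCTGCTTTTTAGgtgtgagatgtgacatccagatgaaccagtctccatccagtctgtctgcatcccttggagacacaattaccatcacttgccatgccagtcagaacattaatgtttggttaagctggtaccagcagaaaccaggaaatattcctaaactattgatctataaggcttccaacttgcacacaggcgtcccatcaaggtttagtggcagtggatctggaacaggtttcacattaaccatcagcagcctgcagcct
Igkv1-88: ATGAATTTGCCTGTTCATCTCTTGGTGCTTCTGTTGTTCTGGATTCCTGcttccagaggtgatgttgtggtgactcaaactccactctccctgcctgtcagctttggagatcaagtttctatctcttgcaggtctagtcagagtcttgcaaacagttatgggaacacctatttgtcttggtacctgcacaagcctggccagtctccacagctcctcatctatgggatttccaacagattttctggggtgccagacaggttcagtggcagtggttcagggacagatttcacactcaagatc
Igkv12-44: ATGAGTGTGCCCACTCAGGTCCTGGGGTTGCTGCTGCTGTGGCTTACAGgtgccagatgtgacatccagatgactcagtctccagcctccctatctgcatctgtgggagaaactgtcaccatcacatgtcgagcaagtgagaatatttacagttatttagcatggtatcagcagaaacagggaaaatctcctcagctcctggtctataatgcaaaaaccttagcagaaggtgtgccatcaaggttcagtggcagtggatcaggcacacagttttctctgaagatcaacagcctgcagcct
Iglv1: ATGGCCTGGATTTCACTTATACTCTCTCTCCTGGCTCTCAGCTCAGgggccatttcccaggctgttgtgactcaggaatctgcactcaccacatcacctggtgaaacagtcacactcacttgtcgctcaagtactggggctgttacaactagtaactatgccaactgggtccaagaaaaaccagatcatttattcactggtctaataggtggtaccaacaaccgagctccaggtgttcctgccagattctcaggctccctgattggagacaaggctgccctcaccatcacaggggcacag
Iglv3: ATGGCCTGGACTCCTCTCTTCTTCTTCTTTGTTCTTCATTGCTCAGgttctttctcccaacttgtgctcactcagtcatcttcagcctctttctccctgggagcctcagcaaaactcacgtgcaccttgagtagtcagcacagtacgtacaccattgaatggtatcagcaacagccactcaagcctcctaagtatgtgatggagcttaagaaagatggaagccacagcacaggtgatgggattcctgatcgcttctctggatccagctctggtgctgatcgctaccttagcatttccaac
Igkv9-120: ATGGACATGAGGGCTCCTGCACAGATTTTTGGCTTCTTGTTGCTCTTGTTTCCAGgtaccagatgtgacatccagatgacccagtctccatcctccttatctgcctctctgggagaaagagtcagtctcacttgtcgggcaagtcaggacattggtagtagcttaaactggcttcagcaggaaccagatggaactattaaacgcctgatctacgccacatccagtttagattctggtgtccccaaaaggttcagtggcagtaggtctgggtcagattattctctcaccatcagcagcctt

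These segments are far enough apart in sequence for most 51-base reads to be placed. Over the whole coding sequence, the leading pair of heavy segments shared 56.1% of aligned positions and the leading pair of lambda segments 55.7%. The 4 kappa segments shared 59.5% to 72.1%, the closest pair being Igkv15-103 and Igkv12-44. Placement also depends on the segments not shown. Of all 51-base words, every one was found in no other annotated V transcript for Igkv1-88 and Iglv3, 97.0% for Ighv3-6, 89.4% for Ighv1-81 and 70.7% for Igkv12-44. Values below are unique gene reads, those the authors' counting placed in a single gene. They made up 70.5% to 73.5% of the total reads of variable segments in the 3 groups.

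Sorted leukaemia cells of all groups carried few reads of variable segments. Control had 2466 unique reads of variable segments among 51073510 unique gene reads, 1-day fasted cells 2397 of 56760084 and 2-day fasted cells 2779 of 42596335. Relative to the library totals, with no further scaling, this was 48.3 CPM (reads scaled to equal library totals) in the fed group (95% exact binomial interval 46.4 to 50.2), 42.2 CPM after the shorter fast (40.6 to 44.0) and 65.2 CPM after the longer (62.8 to 67.7). Intervals here and below cover counting error only. In bulk RNA, more cells carrying a transcript and more transcript per cell cannot be told apart.

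The heavy chain segments together were lowest at 1 day, whereas the light chain segments were highest at 2 days. With TMM factors, which all CPM values from here on include, the summed level of heavy segments was 20.9 and 20.9 CPM in the control runs, 14.8 and 13.4 CPM at 1 day, with 19.8 and 18.9 CPM at 2 days. The log2 fold of the sum was −0.56 at 1 day against control and −0.11 at 2 days. Kappa segments summed to 26.1 and 24.2 CPM in control, 28.9 and 22.8 CPM at 1 day, with 40.4 and 36.9 CPM at 2 days. Both 2-day runs lay above all others, with a log2 fold of 0.62 against control, and the control and 1-day runs overlapped. Lambda segments summed to 3.25 and 3.2 CPM, 2.53 and 3.48 CPM, and 5.44 and 5.54 CPM in the same order. Their log2 fold at 2 days was 0.75 against control, and again the control and 1-day runs overlapped.

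**Figure D1:**
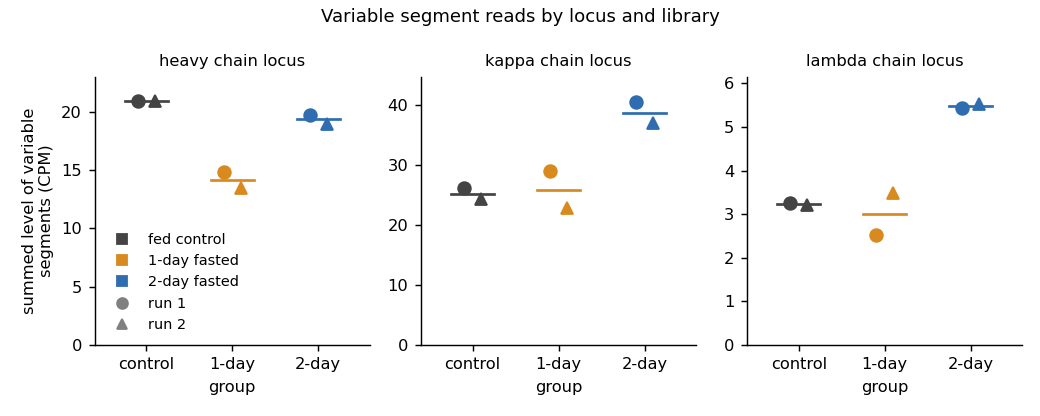
Summed level of the heavy, kappa and lambda variable segments (CPM, y axis) in each group (x axis). Points are runs and bars are the means of the runs. Heavy segments were lowest in the 1-day runs (14.8 and 13.4 CPM), and kappa and lambda segments highest in the 2-day runs.

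The constant regions to which the joined segments are spliced were far more abundant. Ighm, the mu heavy chain constant region, had levels of 1670 (control), 1884 (1-day) and 2121 CPM (2-day), and Igkc, the kappa constant region, at 246, 274 and 327 CPM. Per kilobase of exon, the unique exon reads of all heavy variable segments together amounted to 5.76% of the Ighm density in control, 3.46% at 1 day and 4.17% at 2 days. For kappa segments and Igkc the values were 9.59%, 8.54% and 11.1%. In every group, then, the unique reads counted for V segments covered a small part of the density of the constant exons. Reads of V segments that were not unique, and any left out at the V-to-J joint, are not in these values. Iglc2, a lambda constant region, stood at 3.36, 10.9 and 25.4 CPM, and the lambda constant regions Iglc1 and Iglc3 were not found among the genes. The sum of the 3 lambda variable segments, at 3.23, 3.00 and 5.49 CPM, shared the order of Iglc2 only in part. Iglv3 had that order, with runs of 1.18 and 0.77, 1.44 and 1.80, and 3.00 and 3.15 CPM, whereas Iglv1 and Iglv2 did not.

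Most segments were detected, and few were abundant. Over the 6 libraries, 24 of 221 segments had no unique read, 58 had 1 to 9, 94 had 10 to 49 and 45 had 50 or more, of which 16 had 100 or more. The median was 12 reads for heavy segments and 22 for kappa segments. The most abundant segment, Iglv1, had 278 reads. Of the 221, 205 are annotated as V genes and 16 as V pseudogenes. No pseudogene had more than 12 reads in all, the value of Igkv4-56.

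In the heavy chain locus, reads were spread over many segments in control and over fewer at 2 days. The effective number of segments, the inverse Simpson index, equals the number of segments that would give the same concentration if all had equal shares. For heavy segments it was 50.9 and 52.1 in the control runs, 38.0 and 37.7 in the 1-day runs, and 21.2 and 21.8 in the 2-day runs. The 3 groups were separated, and the runs of each group lay close to each other. The 10 most abundant heavy segments held 33.5% of heavy segment reads in control, 37.2% at 1 day and 58.2% at 2 days. Of the 114 heavy segments, 87 had a read in control, 87 at 1 day and 73 at 2 days, from 1052, 793 and 844 reads.

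The leading heavy segment was Ighv3-6 in control and at 1 day, and Ighv1-81 at 2 days. Ighv3-6 held 4.56% and 5.60% of heavy segment reads in the control runs, 10.9% and 10.8% in the 1-day runs, and 7.76% and 10.5% in the 2-day runs. Its control runs lay below all fasted runs. Its level in CPM was less different, with log2 folds of 0.49 at 1 day and 0.68 at 2 days against control. Ighv1-81 held 3.22% and 2.95% in control, 3.65% and 2.80% at 1 day, with 12.5% and 11.6% at 2 days. Its 32, 25 and 103 reads in the 3 groups gave a read ratio of 3.74 (95% interval 2.49 to 5.75) at 2 days against control. It lay in the J-distal end of the locus, whereas Ighv3-6 lay in the middle. No heavy segment held more than 12.2% of its locus in any group (95% interval for Ighv1-81 at 2 days 10.1% to 14.6%). In control run 1 the first place went to Ighv14-2 with 18 reads, 1 more than Ighv3-6. With total in place of unique reads, Ighv14-2 led the control group too.

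Segments of the Ighv5 family differed between the groups in opposite directions. Ighv5-9 had 4 and 5 reads in control, 4 and 7 at 1 day, with 55 and 20 at 2 days. Its share of heavy segment reads was 0.86% in control, 1.39% at 1 day and 8.89% at 2 days, with both 2-day runs far above the rest. Ighv5-4 had 13 and 24 reads in control, 7 and 13 at 1 day, with 1 and 1 at 2 days, which made 3.52%, 2.52% and 0.24% of heavy segment reads. Ighv5-17 held 3.75% and 3.39% in the control runs, 3.95% and 2.80% at 1 day, with 2.65% and 6.50% at 2 days, so that the 2-day runs lay on either side of all others. Ighv5-2, singled out after its values were seen, had 28 reads in control, 20 at 1 day and 0 of 844 heavy segment reads at 2 days, which allows a share of up to 0.436% (95% exact binomial upper bound). The family as a whole held 19.4%, 16.7% and 19.5% of heavy segment reads as the mean of the runs, so its sum hid these opposite values.

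Ighv2-2 was also highest at 2 days. It held 0.54% and 2.06% of heavy segment reads in the control runs, from 2 and 14 reads, 1.52% and 1.29% at 1 day, with 4.59% and 5.42% at 2 days. Both 2-day runs lay above the rest, and the 10 segments of its family held 7.91%, 5.77% and 15.3%. Only 43.9% of the total reads of Ighv2-2 were unique. Ighv1-5 held 0.95%, 3.03% and 0.24%. Its 24 reads at 1 day against 2 at 2 days gave a ratio of 9.16 (2.27 to 80.0). Ighv1-26 held 3.42%, 3.78% and 1.90%, and Ighv14-2 held 3.99%, 3.03% and 4.27%. The intervals of Ighv14-2 overlapped in all groups. The 55 segments of the Ighv1 family, the largest, held 37.5%, 35.2% and 40.2%.

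In the kappa locus the leading segment differed in each group. Igkv15-103 led control with 52 and 99 reads, 11.2% and 12.6% of kappa segment reads in the runs. It had 4 and 7 reads at 1 day and 13 and 7 at 2 days, shares of 0.62% to 1.30% in the 4 fasted runs. All fasted runs lay far below both control runs. Its level was 15.5-fold lower at 1 day than in control (8.40 to 31.7) and 6.50-fold lower at 2 days (4.06 to 10.9), by read ratio. It ranked 38 among kappa segments at 1 day and 23 at 2 days.

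Igkv12-44 took the first place at 2 days. It had 12 and 14 reads in control, 13 and 13 at 1 day, with 112 and 58 at 2 days. Its shares were 2.58% and 1.78%, 2.03% and 1.65%, and 9.67% and 10.7% of kappa segment reads. Control and 1-day runs overlapped, and both 2-day runs stood far above them. The read ratio at 2 days was 7.6 (5.01 to 12) against control and 8.56 (5.65 to 13.5) against 1 day.

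Igkv1-88 led the kappa locus at 1 day, with 7.84% of the reads. Its share was larger in control, at 9.03%, where the runs overlapped those of 1 day, and it held 2.83% at 2 days. Igkv9-124 had the same order of groups, at 8.15%, 6.37% and 3.00%. Per kilobase of exon Igkv9-124, which has a single annotated exon of 287 bases, ranked above Igkv1-88 at 1 day, with 317 against 298 unique exon reads per kilobase. The other leading segments kept their place when counted per kilobase. Only 50.7% of the total reads of Igkv9-124 were unique, against 100% for Igkv1-88, so its unique count leaves out much of its signal. With total reads Igkv9-124 led control and 1 day, and Igkv1-110 led at 2 days.

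The placement of Igkv19-93 differed between the runs of each group. It had 8, 59 and 34 unique reads in run 1 of control, 1 day and 2 days, and 0 in each run 2, where all its 10, 9 and 5 reads were counted as not unique. With 9.20% of the reads it led the kappa locus in 1-day run 1. The gene tables of the runs differ, and whether this set the values was not tested. Without it Igkv1-88 led both 1-day runs, and the effective numbers below were 24.4, 37.0 and 25.3.

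Several further kappa segments were high at 2 days. Igkv17-121 had 3 and 9 reads in control, 4 and 2 at 1 day, with 60 and 28 at 2 days, a ratio of 8.52 (4.64 to 17.1) against control. Igkv1-110 held 3.36%, 1.54% and 7.66% of kappa segment reads, and Igkv14-111 held 2.32%, 3.71% and 7.30%. Of these, Igkv14-111 alone was ordered by days of fasting, and its intervals for control and 1 day (1.56% to 3.31% and 2.79% to 4.83%) overlapped. Igkv9-120 held rank 4 in every group, at 4.95%, 4.06% and 6.89%, and Igkv10-96 held 3.28%, 2.66% and 3.65%. Igkv6-32 was high at 1 day, with 5 and 13 reads in control, 18 and 33 at 1 day, with 3 and 5 at 2 days. Only 43.6% of the total reads of Igkv17-121 and 49.7% of those of Igkv1-110 were unique, against 100% for Igkv14-111. The unique counts of Igkv17-121 and Igkv1-110 thus leave out much of their signal.

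**Figure D2:**
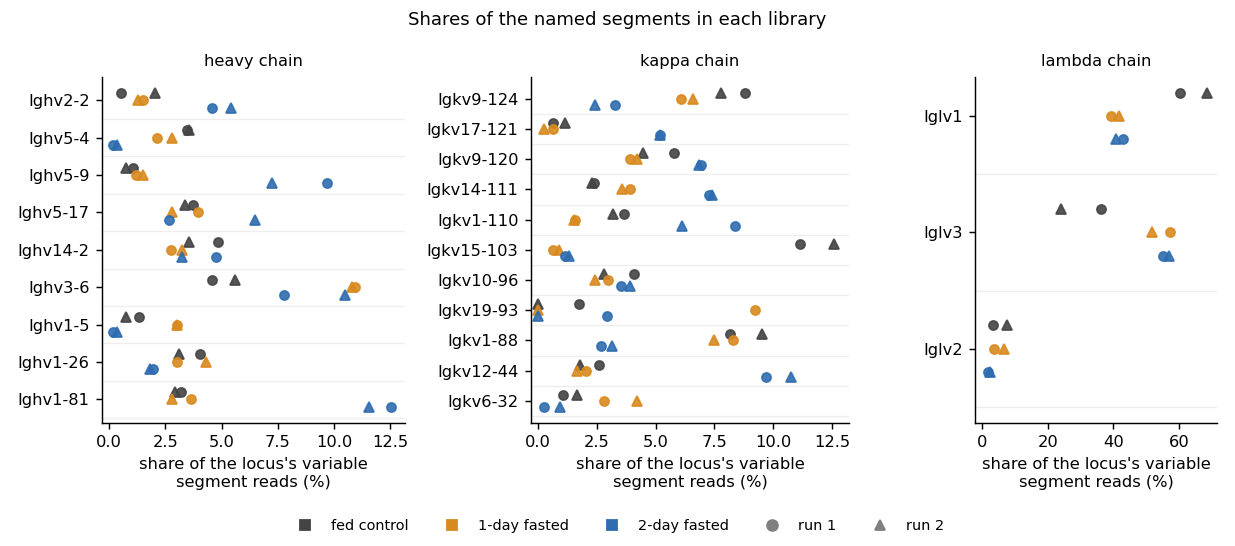
Share of the locus's variable segment reads (x axis, percent) for the 23 segments taken by the naming rule (y axis, in file order), in each run. Igkv15-103 is high in control alone, while Ighv1-81, Ighv5-9, Igkv12-44 and Igkv17-121 are high at 2 days, and the run 2 points of Igkv19-93 lie at 0.

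The kappa locus was most evenly used at 1 day. Its effective number of segments was 25.4 and 24.4 in the control runs, 31.6 and 38.5 at 1 day, with 26.0 and 26.4 at 2 days. Control and 2 days were thus alike in concentration, although their leading segments differed. The 10 most abundant kappa segments held 49.8%, 41.5% and 51.6% of the reads. The Igkv12 family, with 7 segments, held 7.36%, 7.32% and 15.6% as the mean of the runs, and the Igkv4 family, the largest with 27 segments, held 13.6%, 15.7% and 10.9%. By position along the locus, the J-proximal 35 kappa segments held 21.4%, 25.6% and 23.3%, with overlapping runs. The middle 38 heavy segments held 32.4% and 34.5% of heavy segment reads in the control runs, 39.8% and 42.5% at 1 day, with 27.0% and 29.6% at 2 days, and the runs of the 3 groups did not overlap. Ighv3-6 is the border segment of this part, next to the J-proximal segments. It alone held 4.56% and 5.60% in the control runs and 10.9% and 10.8% at 1 day. Much of the gap between control and 1 day thus lay in this segment. The J-proximal 38 heavy segments held 43.7%, 39.9% and 45.2% as the mean of the runs, and the J-distal 38 held the rest.

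**Figure D3:**
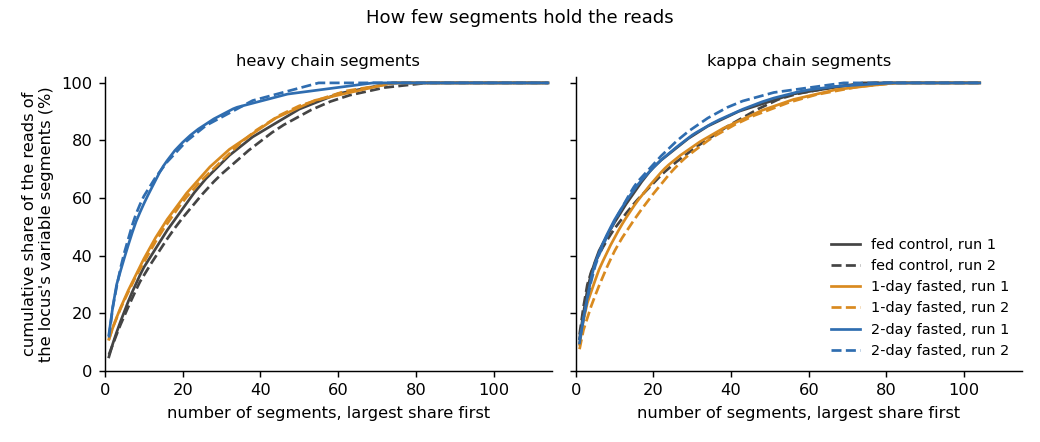
Cumulative share of the reads of the locus's variable segments (y axis, percent) against the number of segments, ordered from the largest share (x axis), in each run. In the heavy locus the 2-day curves lie above the others, reaching 58.0% and 60.6% at 10 segments, while in the kappa locus the 1-day curves lie lowest there, at 46.2% and 41.6% against 49.4% to 52.4% in the other runs.

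The lambda locus of the mouse holds few variable segments, and its leading segment was Iglv1 in control and Iglv3 in both fasted groups. Iglv1 held 60.3% and 68.3% of lambda segment reads in the control runs, 39.3% and 41.7% at 1 day, with 42.9% and 40.7% at 2 days. Iglv3 held 36.2% and 24.0%, 57.1% and 51.7%, and 55.1% and 56.8%. For both segments all fasted runs lay on one side of the control runs. In CPM, Iglv3 was 3.33-fold higher at 2 days than in control by read ratio (2.37 to 4.77), whereas Iglv1 had a log2 fold of −0.72 at 1 day and 0.14 at 2 days. Iglv2 had 10, 10 and 5 reads. With total reads in place of unique reads, Iglv1 led all 3 groups, so the change of order depends on how reads shared with other segments are counted.

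Whole profiles were compared through their overlap, the sum over segments of the smaller of the shares in a pair of libraries. Runs of the same group shared 75.1% to 79.2% of their heavy profile and 78.2% to 84.5% of their kappa profile. Control and 1-day runs shared 68.8% to 73.0% and 63.7% to 68.9%. Control and 2-day runs shared 52.0% to 58.8% of the heavy and 57.0% to 57.4% of the kappa profile, and 1-day and 2-day runs 53.0% to 56.3% and 59.1% to 60.9%. In the heavy and kappa loci the overlap between groups was thus below that between runs, and lowest where the 2-day group was involved. The lambda profile differed: 1-day and 2-day runs shared 94.9% to 98.5%, against 87.8% to 97.8% for runs of the same group, and control runs shared 66.9% to 81.3% with the fasted runs. Part of each gap below 100% is read-sampling error, since the runs hold 277 to 679 heavy and 466 to 1158 kappa segment reads.

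Changes of single segments were counted as a difference of at least 2-fold in the mean CPM and in each run in the same direction, with 0.1 CPM added. The filter on low counts was passed by 55 segments, 21 heavy, 32 kappa and 2 lambda. At 1 day against control, 3 of the 55 were higher and 3 lower, where 1.49% of all 13045 genes tested were higher and 0.744% lower, 2.24% in all. Segments have low counts, and among genes with a mean of 0.5 to 5 CPM the shares were 3.54% higher, 1.63% lower and 5.18% in all. Over all 221 segments with no filter, 5 were higher and 11 lower, 2 and 7 of them heavy, where 0.594% of all 37732 genes were higher and 0.368% lower, 0.962% in all. For counts with no filter, here and below, no background of genes at a like level was made. The higher segments were Igkv6-32 (log2 fold 1.16), Igkv16-104 (1.65) and Igkv8-27 (1.5), and the lower were Igkv15-103 (−3.40), Igkv8-24 (−1.72) and Ighv5-6 (−1.20). Of these 6, the naming rule takes Igkv6-32 and Igkv15-103, and the rest were named after their values were seen. The median log2 fold of the 55 was −0.21, against 0.00 over all genes.

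At 2 days against control, 15 of the 55 segments were higher and 4 lower, where 4.65% of all genes were higher and 5.84% lower, 10.5% in all. Among genes of 0.5 to 5 CPM the shares were 8.97% higher, 13.2% lower and 22.2% in all. The higher segments were 10 kappa, 4 heavy and 1 lambda, and the lower were 3 heavy and 1 kappa. Over all 221 segments with no filter, 18 were higher and 15 lower, where 1.76% of all genes were higher and 2.4% lower, 4.16% in all. Of the heavy segments 4 were then higher and 12 lower, and of the kappa segments 13 and 3. The largest log2 folds were those of Igkv17-121 (2.70), Igkv12-44 (2.63) and Ighv5-9 (2.59), and the lowest that the naming rule takes were those of Ighv5-4 (−2.46) and Igkv15-103 (−2.44). The median log2 fold of the 55 was 0.68, against 0.01 over all genes, and by locus it was 0.98 for kappa and −0.06 for heavy segments.

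At 2 days against 1 day, 14 segments were higher and 4 lower, where 1.88% of all genes were higher and 4.91% lower, 6.78% in all. Among genes of 0.5 to 5 CPM they were 4.04% higher, 11.2% lower and 15.3% in all. With no filter 17 of the 221 segments were higher and 13 lower, of which 8 and 10 were heavy and 9 and 3 kappa, where 0.745% of all genes were higher and 2.0% lower, 2.74% in all. Igkv17-121 (3.26), Igkv12-44 (2.80), Ighv5-9 (2.58), Igkv1-110 (2.55) and Ighv1-81 (2.12) had the largest log2 folds. Igkv6-32 (−1.61) and Ighv1-5 (−1.80) were lower. The 3 comparisons share libraries, so their counts are not independent of each other. Segments that passed the filter only through the group in which they were high had to differ, so these counts describe the measured segments and not all 221. With 1 CPM added in place of 0.1 CPM, the counts fell from 6, 19 and 18 segments to 1, 5 and 4, and without control run 2 the first rose to 10.

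**Figure D4:**
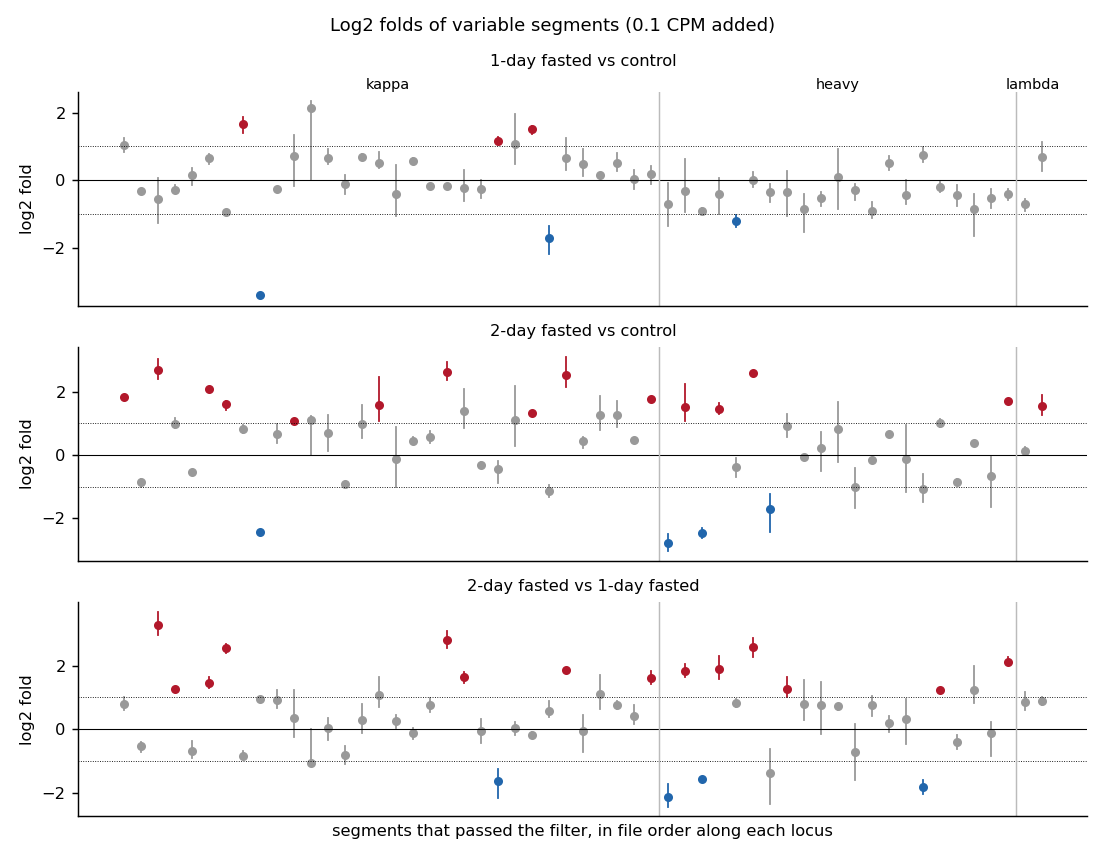
Log2 fold (y axis, 0.1 CPM added) of the 55 segments that passed the filter, in file order along each locus (x axis), in the 3 comparisons. Points are folds of the mean, lines join the folds of the runs, and red and blue mark the segments at least 2-fold higher or lower in the mean and in each run, 15 and 4 at 2 days against control.

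Reads across the splice between the leader and V exons come from processed transcripts. They made up 5.72% of unique segment reads in control, 4.34% at 1 day and 4.79% at 2 days. Segments differed widely among themselves. Igkv9-120 had 105 of its 237 reads across the splice (44.3%), Ighv5-17 had 29 of 96, Ighv5-9 had 20 of 95 and Ighv5-4 had 11 of 59. By contrast, Ighv3-6 had 0 of 214 (95% interval up to 1.71%), Igkv12-44 had 0 of 222 (up to 1.65%) and Igkv1-88 had 1 of 273. Among the other leading segments, Ighv1-81 had 5 of 160 (3.13%, 1.02% to 7.14%) and Igkv15-103 had 4 of 182 (2.20%, up to 5.53%). Of 91 segments with 2 or more exons and at least 20 reads, 38 had no such read and 12 had at least 10%. How the counting treated reads with a short overhang in the leader exon of 43 to 55 bases was not tested.

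The heavy joining segments also had another profile at 2 days. Ighj1 held 59 of 75 and 93 of 118 heavy J reads in the control runs, 94 of 123 and 135 of 183 at 1 day, and 8 of 44 and 4 of 25 at 2 days. As a share this was 78.8% in control (72.3% to 84.3%), 74.8% at 1 day (69.6% to 79.6%) and 17.4% at 2 days (9.32% to 28.4%). Ighj4 held 16.6%, 11.8% and 55.1%, and Ighj3 held 0.52%, 2.94% and 27.5%. In CPM, Ighj1 stood at 3.09, 4.07 and 0.28 and Ighj4 at 0.63, 0.65 and 0.88. The larger share of Ighj4 at 2 days thus came mainly with fewer Ighj1 reads. Ighj2 had 8, 32 and 0 reads. The 5 kappa joining segments had 0 to 3 reads in any group. These counts do not say whether a J segment was joined to a V segment, or to which.

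**Figure D5:**
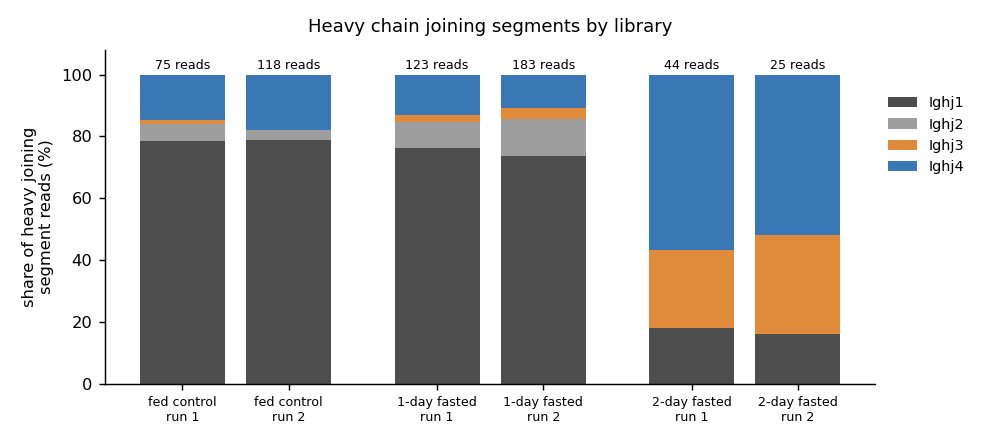
Share of heavy joining segment reads (y axis, percent) held by Ighj1 to Ighj4 in each run (x axis), with the number of reads above each bar. Ighj1 holds 78.8% and 74.8% of the reads in control and 1-day cells and 17.4% at 2 days, where Ighj3 and Ighj4 hold most of the rest.

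Genes that make or accompany the receptor were read beside the segments. Of 15 receptor and recombination genes, 12 were found and 10 passed the filter. At 2 days against control 1 was higher and 4 lower, where 4.65% of all genes were higher and 5.84% lower, with a median log2 fold of −0.12. Dntt, which adds nucleotides at the joints, stood at 98, 26.6 and 0.26 CPM, and the surrogate light chain genes Igll1 and Vpreb1 at 75.8, 67.0 and 1.33 CPM and at 52.1, 41.9 and 1.26 CPM. Rag2, a subunit of the recombinase, had 36, 37 and 1 reads. Of the switched constant regions, 3 of 4 that passed the filter were higher at 2 days against control and 0 lower. Over all genes 4.65% were higher and 5.84% lower, and among genes of 0.5 to 5 CPM 8.97% and 13.2%. Ighg1 (5, 4 and 107 reads) and Ighg2c (15, 18 and 133) passed only through the group in which they were high. Such genes had to differ. The 4 had a median log2 fold of 2.07, which leaves out Ighg3 (0.22) and Ighe (1.84). Igha, the constant region of IgA, stood at 33.6, 15.4 and 75.9 CPM, and Ighg1 at 0.08, 0.07 and 2.45 CPM.

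Markers of other cells that the sort could hold differed between the groups as well, and their part in the variable segment values was not tested. The 7 B lineage markers found of 8 summed to 3593, 4041 and 3807 CPM in control, 1-day and 2-day cells, with none at least 2-fold apart in any comparison. Plasma cell markers, 8 of 8 found, summed to 828, 766 and 556 CPM, and of the 7 that passed the filter 1 was higher and 2 lower at 2 days against control. Igj, the J chain of secreted antibody, stood at 6.59, 2.82 and 13.7 CPM, in the same order as Igha, whereas the plasma cell antigen Sdc1 stood at 27.3, 17.2 and 8.08 CPM. T cell markers, 8 of 8 found, summed to 4.17, 3.94 and 1.76 CPM, neutrophil markers to 1215, 781 and 1046 CPM, and erythroid markers to 148, 189 and 347 CPM. No marker found in these lists was at 0 over the 6 libraries. At 2 days against control the T cell list had 0 higher and 3 lower of 6 that passed the filter, the neutrophil list 0 of 8 in either direction, and the erythroid list 2 higher and 0 lower of 6. These counts too stand beside 4.65% higher and 5.84% lower over all genes, and 8.97% and 13.2% among genes of 0.5 to 5 CPM.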

How the data were processed

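Unique gene reads, total gene reads, unique exon reads, reads across exon junctions and RPKM per gene were deposited by the authors in 1 table per library. These are whole-number counts from 51-base single-end reads, deposited by the authors, and RPKM values that the authors had computed. Per the submitters' processing notes, TopHat2 aligned the reads to mm10. The sources used here name no counting program, annotation or use of strand. The run 1 files list 38355 genes and the run 2 files 38924. They were joined by position (37429 genes) or by name (303). Of the 221 variable segments, 220 were joined by position and 1 by name. The joined genes hold 95.2% to 99.96% of unique gene reads.

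Segments were matched by name and position to GENCODE M21 (GRCm38, the same assembly as mm10), which lists 218 V genes, 13 of them not among the rows analysed. Libraries hold 14344747 to 34531555 unique gene reads. Counts were scaled by TMM (edgeR 4.0.16, R 4.3.3), after filterByExpr with a minimum count of 10. DESeq2 1.42.0 size factors were an alternative. Shares carry exact Clopper-Pearson intervals and read ratios exact conditional binomial intervals, at 95%, from SciPy 1.17.1. Scripts were tested on simulated counts with known folds set only in genes above 1 CPM, so the recovery of folds at lower levels was not checked. Other alternatives were total or exon reads, RPKM, library-size scaling, a pseudocount of 1 CPM, no filter, a 1.5-fold limit, segments at least 90% unique, all rows of each file and leaving out each run. Leaving out Igkv19-93 and the background of genes of 0.5 to 5 CPM were added after seeing the data. Named are, per locus and group, the 5 segments with the largest share of at least 2%, and per comparison and direction the 5 with the largest log2 fold among those differing with at least 50 reads in a group. The segments, lists and rules were chosen with earlier results of these data known. Promoter sequences of the segments were not used here.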

Additional observations from a re-analysis of the deposited data

How the results depend on the processing

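No paired analysis was possible because the runs of a group were counted as 1 sample and no test was made. The 6, 19 and 18 segments counted as differing (1 day against control, 2 days against control, 2 days against 1 day) became 1, 5 and 4 with a pseudocount of 1 CPM, 16, 33 and 30 with no filter on low counts (5 higher and 11 lower, 18 and 15, 17 and 13), and 11, 31 and 31 at 1.5-fold. The first count was 10 with total gene reads. Leaving out a run gave 5 to 10, 20 to 24 and 18 to 24; the 10 came without control run 2. Other scalings, exon reads and RPKM kept the counts within 1.5 times.

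Reads of variable segments relative to the library (48.3, 42.2 and 65.2 unscaled CPM in control, 1 day and 2 days) were 51.0, 44.7 and 71.5 with total reads, 51.6, 44.7 and 68.8 with exon reads, and 18.0, 16.7 and 19.8 for segments at least 90% unique. Leaving out a run gave 47.6 to 49.4, 39.7 to 46.2 and 62.6 to 66.6. The order of the groups was the same in each of these. Among segments at least 90% unique, however, the gap between control and 2 days (18.0 and 19.8) was proportionally much smaller than over all segments.

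With total reads the share of Ighv3-6 was 3.77% in control, where Ighv14-2 led, and 8.35% at 1 day, and that of Ighv1-81 at 2 days was 9.95%. In the kappa locus the shares of the leading segments were 8.85% (Igkv15-103 in control, where Igkv9-124 led), 5.54% (Igkv1-88 at 1 day, where Igkv9-124 led) and 8.13% (Igkv12-44 at 2 days, where Igkv1-110 led), and in the lambda locus those of Iglv3 were 45.0% at 1 day and 48.4% at 2 days. Among segments at least 90% unique the shares were 16.7% and 27.2% for Ighv3-6 in control and at 1 day, 27.8% for Igkv15-103 in control, 20.9% for Igkv1-88 at 1 day and 100% for Iglv3, the one lambda segment left. Ighv1-81 and Igkv12-44 are not among them. Leaving out a run gave 51.7% to 57.1% for Iglv3 at 1 day.

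The effective number of heavy segments was 44.8 at 1 day and 24.7 at 2 days with total reads, 38.3 at 1 day with exon reads, and 15.5, 9.64 and 7.11 in the 3 groups among segments at least 90% unique. For kappa segments it was 24.1 at 2 days with total reads, 25.6 with exon reads and 25.3 without Igkv19-93, and 7.37, 11.4 and 8.98 among segments at least 90% unique. For lambda segments it was 1.81, 2.35 and 2.11 with total reads. Leaving out a run gave 50.9 to 52.1, 37.7 to 38.0 and 21.2 to 21.8 for heavy segments, 24.4 to 25.4, 31.6 to 38.5 and 26.0 to 26.4 for kappa segments, and 2.06 to 2.07 for lambda segments at 2 days. The order of the groups in the heavy locus held under each setting named here. The cause of these shifts was not tested. Of the named segments' folds under the alternatives, 781 stayed on their side of the 2-fold rule, 17 fell short of it, 30 newly met it, and none that met it reversed.

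Depth limits the single-segment values: most segments have under 50 reads in all.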
